A study of Mus musculus with 8 samples.

Results

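Oxidative phosphorylation makes most of the ATP of a resting cell. Electrons from the citric acid cycle pass through complexes I to IV of the inner mitochondrial membrane, and complex V, the ATP synthase, uses the proton gradient they build. Most subunits are encoded in the nucleus and a small core in the mitochondrial genome. In the mature kidney the tubule segments that pump sodium are packed with mitochondria, whereas nephron progenitors are known to rely more on glycolysis. The genes described here are the nuclear-encoded subunits and complex I assembly factors, taken as all genes of the count matrix whose symbol starts with *Nduf*, *Cox4* to *Cox8*, *Atp5* or *Uqcr*. This rule gave 90 of 32285 genes. They comprise 37 subunits of complex I, 8 complex I assembly factors (*Ndufaf*), 8 subunits of complex III, 20 of complex IV and 17 of complex V. *Ndufa4* and *Ndufa4l2* were counted with complex IV, where the NDUFA4 protein is found. The rule takes no gene of complex II and no cytochrome c, which are given beside the members. Of the 90 members, 89 had at least 1 UMI (unique molecular identifier, a counted RNA molecule) in the cells used, *Cox8c* being the exception.

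The cells came from the kidneys of 4 male C57BL/6 embryos at E17.5, pooled in 1 10x library in which each mouse carried its own membrane tag. Mice 1 and 2 were Trim28Δ/Δ, in which a transgenic Cre driven by the *Six2* promoter [Tg(Six2-EGFP/cre)1Amc] deletes the segment between introns 3 and 14 of both floxed *Trim28* alleles. Mice 3 and 4 were Trim28f/f, with both alleles floxed and no Cre named. Cre acts in nephron progenitors and hence in the nephron tubules and podocytes that descend from them, but not in ureteric bud, stroma, endothelium or blood, so that only part of each Trim28Δ/Δ kidney lacks *Trim28*. Nothing in the labels says whether the mice were littermates, and p-values measure the spread between these mice only.

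After filtering, 7363 cells were assigned to a mouse, 1316 and 1491 to the Trim28Δ/Δ mice and 2749 and 1807 to the Trim28f/f mice, with about 25761300 to 52777500 UMIs per mouse. Clusters were named only from fixed markers and are called NPC-like (nephron progenitor), PT-like (proximal tubule), ErPT-like (early proximal tubule), LOH-like (loop of Henle), DT-like (distal tubule) and so on. This gave 14 named classes, while clusters 2, 5, 8, 13 and 16 stayed unnamed and cluster 22 was too small to compare. Mouse 3 stood apart within its group. All but 3 of its 174 collecting duct-like cells fell in cluster 14, which held 1 cell of another mouse. RNA free in the suspension was estimated at 13.5% to 32.4% of the UMIs of a class. Levels are CPM (counts per 1000000), the UMIs of a gene scaled to that total of UMIs on genes in 1 class of 1 mouse. The assay reads the 3′ end of each transcript, so CPM counts molecules whatever the transcript length. Clusters were made from the same cells and genes, so that levels between classes are descriptions with no test.

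*Trim28* itself, on chromosome 7, was at 28.7 and 24.6 CPM in NPC-like cells of the Trim28Δ/Δ mice and at 138 and 160 CPM in those of the Trim28f/f mice. The log2 change was −2.63 (SE 0.21, adjusted p = 0.000539, edgeR quasi-likelihood test) in NPC-like cells and −0.05 in stroma-like cells (103.5 and 98.0 against 85.0 and 116 CPM). The counted end of the transcript lies outside the floxed segment, so these values do not check the deletion itself.

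The summed level of the 90 genes fell into a high group of 4 tubule classes, a broad middle and a single low class. In DT-like cells it was 85883 and 73963 CPM in the Trim28Δ/Δ mice and 66366 and 81421 CPM in the Trim28f/f mice, a mean of 76908 CPM ± 8577 (SD, n = 4) or 7.69% of all UMIs. PT-like cells had 68522 and 63272 against 62785 and 61504 CPM, a mean of 64021 CPM ± 3092. LOH-like cells followed with 61455 CPM ± 6101, and the intercalated-like cells of the collecting duct had 63298 CPM ± 12693. NPC-like cells had 34742 and 34537 against 30577 and 31609 CPM. Their mean of 32866 CPM ± 2092 lay in the middle group, which ran from 39246 CPM ± 1186 in ErPT-like cells to 30127 CPM ± 1358 in immune-like cells. Erythroid-like cells, which are rich in globin transcripts, had 16314 CPM ± 3925. In this order the ranges of the 4 mice overlapped between all neighbours except LOH-like and ErPT-like cells and immune-like and erythroid-like cells.

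**Figure D1:**
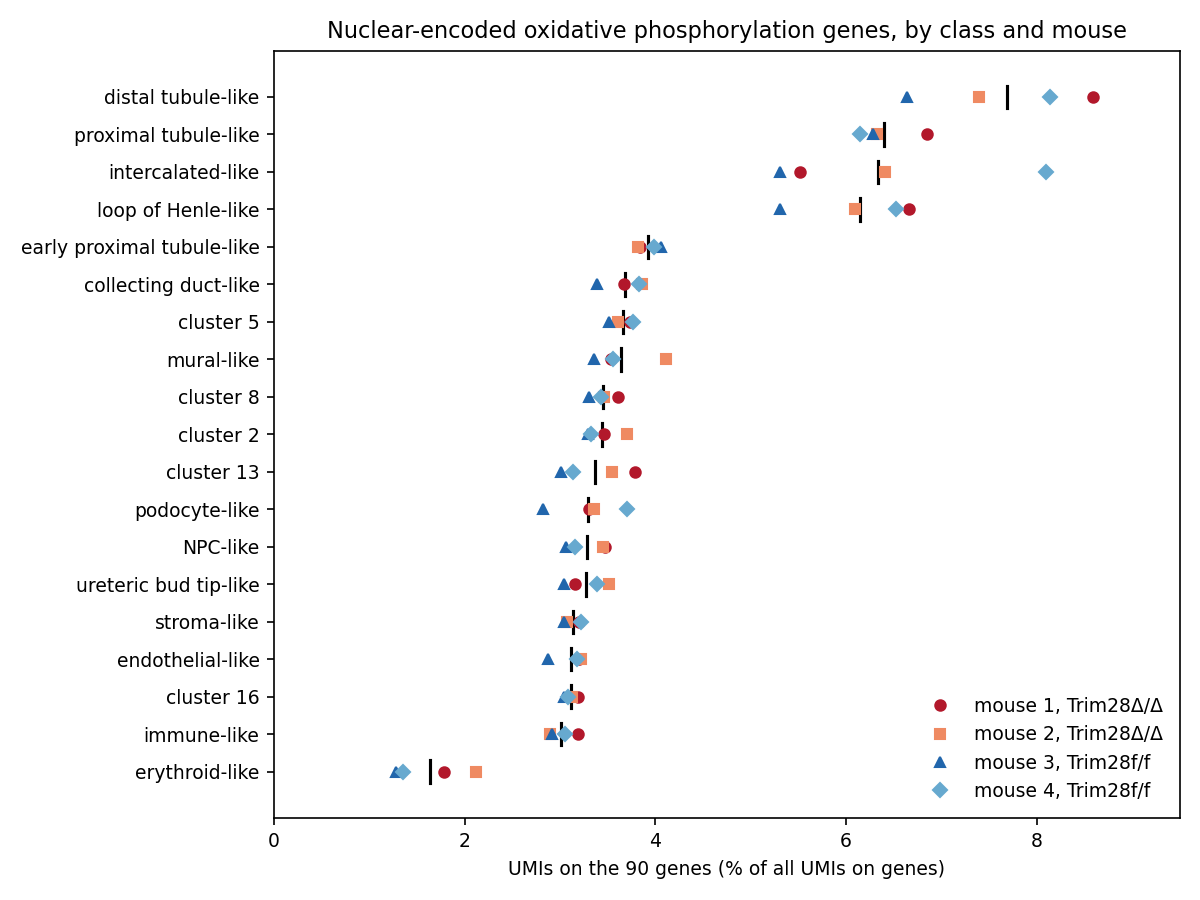
UMIs on the 90 genes as a percentage of all UMIs on genes (x axis, starting at 0) in each class (rows, ordered by mean), with 1 symbol per mouse (red shades Trim28Δ/Δ, blue shades Trim28f/f) and a black bar at the mean of 4 mice. The 4 tubule classes at the top have means between 6.15% and 7.69%, apart from the ErPT-like cells and all classes below them.

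Relative to NPC-like cells the summed level was 2.34-fold in DT-like, 1.95-fold in PT-like, 1.93-fold in intercalated-like and 1.87-fold in LOH-like cells, and 0.496-fold in erythroid-like cells. Per cell, the members took a median of 7.52% of the UMIs in DT-like, 6.47% in PT-like, 5.35% in LOH-like and 3.15% in NPC-like cells. The 10th and 90th percentiles were 4.62% and 8.35% of UMIs in PT-like cells and 2.59% and 3.82% in NPC-like cells. LOH-like cells were broader, from 3.40% to 9.05%. The free RNA had 48547 CPM of the members, more than NPC-like cells and less than PT-like cells, and subtracting its estimated part raised the ratio of PT-like to NPC-like cells to 2.23 and that of DT-like to NPC-like cells to 2.73, and lowered that of erythroid-like to NPC-like cells to 0.283.

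The complexes kept nearly fixed proportions across the named classes. Complex I took 25.5% to 30.4% of the UMIs of the members, complex III 9.37% to 11.2%, complex IV 29.0% to 32.4% and complex V 29.5% to 32.5%, whereas the assembly factors took 0.627% to 1.03%. The level in PT-like over NPC-like cells, taken within each mouse, averaged 1.97 ± 0.0749 for complex I (SD, n = 4), 2.05 ± 0.149 for complex III, 1.96 ± 0.0804 for complex IV and 1.91 ± 0.103 for complex V. These ratios overlapped between the complexes. The assembly factors, which help to build complex I but are not part of it, had a lower ratio of 1.40 ± 0.0828, and its highest mouse, at 1.52, lay below the lowest value of any complex, 1.78. In DT-like over NPC-like cells the ratio was 2.62 ± 0.281 for complex III, 2.40 ± 0.203 for complex V, 2.38 ± 0.215 for complex IV, 2.16 ± 0.232 for complex I and 1.66 ± 0.135 for the assembly factors.

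Most single genes followed the sum. Of the 86 members with a comparable level, 79 were higher in PT-like than in NPC-like cells in all 4 mice and 4 were lower in all 4, and the median fold was 1.96 (quartiles 1.67 and 2.26). Over the 6066 genes with at least 20 CPM in NPC-like cells the median fold, from counts pooled over the mice, was 0.779 (quartiles 0.521 and 1.2). The members had no such minimum and their folds were averaged over mice, so the 2 medians were not made alike. How many of all genes were higher in all 4 mice was not counted. All 37 complex I genes and all 8 complex III genes were higher in PT-like cells in every mouse. The 4 genes that were lower in every mouse were *Cox4i2*, *Cox7a2l*, *Atp5g2* and the assembly factor *Ndufaf2*. Of the 86 members that reached at least 20 CPM in some class, 60 had their highest level in DT-like, 17 in PT-like, 4 in intercalated-like, 2 in LOH-like and 2 in mural-like cells, and 1, *Ndufaf2*, in stroma-like cells. Erythroid-like cells were lowest for 83 of them. The shares of all genes with their highest or lowest level in these classes were not counted either, so these counts are not set apart from other genes.

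**Figure D2:**
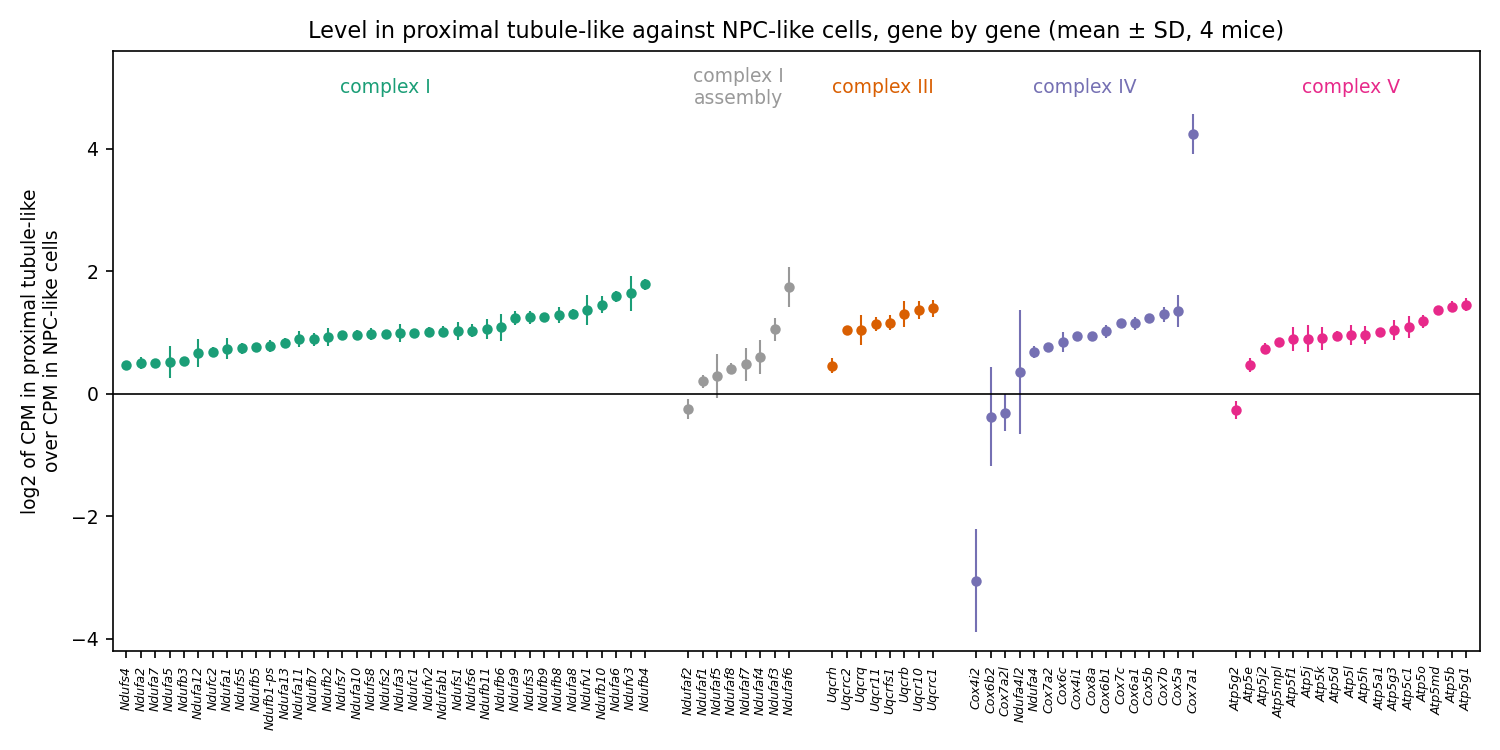
Log2 of the CPM in PT-like over the CPM in NPC-like cells (y axis) for the 86 members with a value (x axis, ordered within each complex), as points at the mean and lines for 1 SD over 4 mice. Nearly all genes lie above 0, with *Cox7a1* far above and *Cox4i2* far below the others.

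Among complex I subunits the most abundant over all cells were the accessory subunits *Ndufb9*, *Ndufb8* and *Ndufa6*. *Ndufb9* had 1048 and 1000 against 836 and 889 CPM in PT-like cells and a mean of 1113 CPM ± 139 in DT-like cells. *Ndufb8* and *Ndufa6* were instead highest in PT-like cells, with means of 893 CPM ± 52.5 and 874 CPM ± 89.4, although their ranges overlapped those of DT-like cells. Of the 17 members highest in PT-like cells 12 were complex I subunits. The largest PT-like over NPC-like folds of complex I were 3.45 for *Ndufb4*, 3.11 for *Ndufv3*, 3.01 for *Ndufa6* and 2.74 for *Ndufb10*. *Ndufb4*, an accessory subunit of the membrane arm, had 211 and 215 against 201 and 203 CPM in NPC-like cells and 775 and 691 against 722 and 679 CPM in PT-like cells. No mouse of one class came near the other. *Ndufs1*, the largest iron-sulphur subunit of the matrix arm, had the widest span of the complex, with 168 CPM ± 25.9 in DT-like, 134 CPM ± 14.2 in LOH-like and 111 CPM ± 2.36 in PT-like cells. Of the assembly factors, *Ndufaf6* was highest in PT-like cells with 79.3 and 84.7 against 72.6 and 64.5 CPM, a 3.34-fold level over NPC-like cells. *Ndufaf5*, a hydroxylase that modifies NDUFS7, reached 41.1 CPM ± 7.87 in DT-like and 32.5 CPM ± 3.97 in LOH-like cells, and the next classes were at or below 16.0 CPM.

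Complex III was led by *Uqcrh*, the hinge protein that holds cytochrome c1, with 1797 CPM ± 135 in DT-like and 1223 CPM ± 87.5 in PT-like cells. *Uqcr10* followed with 1340 CPM ± 207 and 1247 CPM ± 89.8. *Uqcrb* was highest in intercalated-like cells with 1344 CPM ± 348, against 1244 CPM ± 237 in DT-like cells, ranges that overlapped. The core protein *Uqcrc1* and the Rieske iron-sulphur protein *Uqcrfs1*, had 473 CPM ± 49.6 and 585 CPM ± 96.8 in DT-like cells, 3.11 and 3.10 times their median over classes.

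Complex V turned on the catalytic subunit and the ring. *Atp5b*, the catalytic beta subunit, had 3057 and 2668 against 2583 and 2863 CPM in DT-like cells, and means of 2207 CPM ± 126 in LOH-like and 2064 CPM ± 115 in PT-like cells. *Atp5h*, a subunit of the peripheral stalk, had 1994 CPM ± 237 in DT-like and 1356 CPM ± 70.5 in PT-like cells. The ring that turns as protons pass is made of subunit c, whose mature protein is the same from 3 genes, *Atp5g1*, *Atp5g2* and *Atp5g3*. These genes differed in their course through the nephron. *Atp5g1* had 664 and 624 against 495 and 628 CPM in NPC-like cells and 1810 and 1610 against 1503 and 1650 CPM in PT-like cells. *Atp5g2* had 1122 and 1004 against 1169 and 1029 CPM in NPC-like cells and 968 and 935 against 850 and 837 CPM in PT-like cells. *Atp5g3* had 588 and 522 against 435 and 476 CPM in NPC-like cells and 1096 and 989 against 1030 and 1030 CPM in PT-like cells. *Atp5g1* and *Atp5g3* were thus higher and *Atp5g2* lower in the PT-like cells of every mouse.

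*Atp5g2* gave 49.5% ± 4.20 of the UMIs of the 3 genes in NPC-like but only 25.1% ± 1.09 in PT-like cells (SD, n = 4), whereas *Atp5g1* gave 27.5% ± 2.69 and 45.9% ± 1.15. *Atp5g1* was the leading gene in PT-like, DT-like (48.7% ± 3.79), intercalated-like (45.7% ± 2.65) and LOH-like cells (42.9% ± 4.30), and *Atp5g2* in the other 10 named classes, from 39.9% in erythroid-like to 52.2% in ureteric bud tip-like cells. Single mice went against this in LOH-like cells, where mouse 3 had 36.6% *Atp5g1* and 38.0% *Atp5g2*, and in erythroid-like cells, where mouse 4 had 38.0% and 34.2%. *Atp5g3* stayed between 19.8% and 29.0% in the named classes. The level of *Atp5g2* was nearly flat, with means between 761 and 1131 CPM in all classes but erythroid-like cells (374 CPM ± 155).

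**Figure D3:**
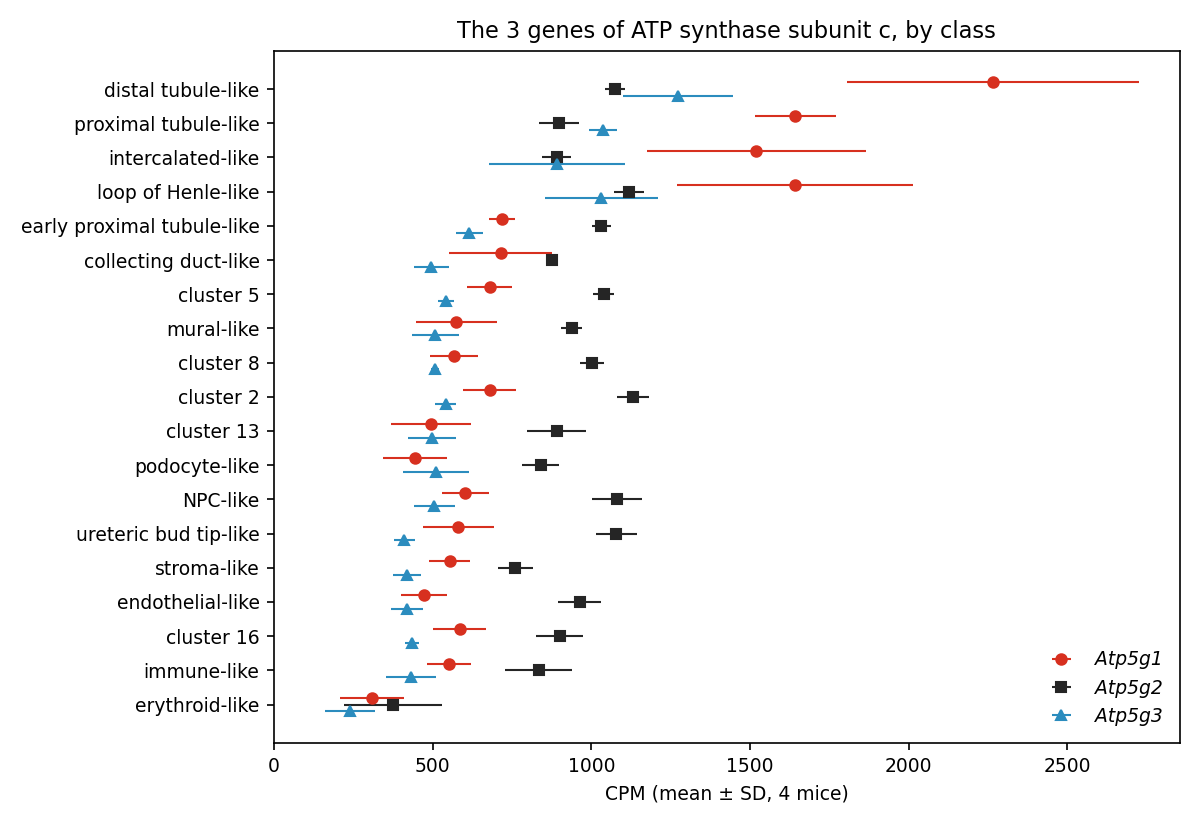
CPM (x axis, starting at 0) of *Atp5g1* (red circles), *Atp5g2* (black squares) and *Atp5g3* (blue triangles) in each class (rows), as symbols at the mean and lines for 1 SD over 4 mice. *Atp5g1* lies above *Atp5g2* in DT-like, PT-like, intercalated-like and LOH-like cells and below it in all other classes.

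The stretches before the start sites of the 3 genes are shown because the genes encode one mature protein and differed in level between classes. Each is the longest run of the 250 bases before the RefSeq start site (GRCm38.p6) that no annotated exon covers, written 5′ to 3′ on the gene's strand. Capitals mark matches, on either strand, to AAGGTCA (the motif of the oestrogen-related receptors) and to ACGTG (the core of hypoxia response elements).
Atp5g1: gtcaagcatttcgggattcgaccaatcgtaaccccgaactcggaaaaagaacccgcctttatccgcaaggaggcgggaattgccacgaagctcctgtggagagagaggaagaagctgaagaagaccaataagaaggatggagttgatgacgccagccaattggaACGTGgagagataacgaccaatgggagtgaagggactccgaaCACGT
Atp5g2: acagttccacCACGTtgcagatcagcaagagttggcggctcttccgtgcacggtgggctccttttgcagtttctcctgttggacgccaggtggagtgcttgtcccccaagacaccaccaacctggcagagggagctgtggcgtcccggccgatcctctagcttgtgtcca
Atp5g3: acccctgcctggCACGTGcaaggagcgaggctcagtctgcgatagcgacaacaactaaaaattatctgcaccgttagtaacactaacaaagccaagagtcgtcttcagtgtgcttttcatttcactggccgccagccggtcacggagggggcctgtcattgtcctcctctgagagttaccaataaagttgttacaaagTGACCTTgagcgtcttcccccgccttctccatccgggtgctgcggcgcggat
The stretches lie at chr11:96075671-96075881, chr15:102671128-102671297 and chr2:73911327-73911576, all on the minus strand. ACGTG matched in all 3, and AAGGTCA in *Atp5g3* alone, from 52 to 46 bases before the start. Both ACGTG matches of *Atp5g3* lie in the palindrome CACGTG and share bases. Windows of 300 bases, from 250 before to 50 after the start, were available for 72 of the 90 members and for 27025 genes in all. AAGGTCA was in 7 member windows, or 9.72% against 5.38% of all windows, and ACGTG in 22.2% against 21.8%. Of other motifs known from such promoters, the NRF1 motif was in 23.6% of member windows against 5.19% of all, GCCATCTT (YY1) in 13.9% against 3.19%, and CCGGAAGT (GABP) in 6.94% against 4.31%. Of the 3 ring genes, the windows of *Atp5g2* and *Atp5g3* held the NRF1 motif and that of *Atp5g1* did not. A match is a run of letters, and binding was not measured.

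Complex IV had the genes with the sharpest differences between classes. Over all cells the 3 most abundant members were its housekeeping subunits *Cox8a*, *Cox4i1* and *Cox7c*. *Cox8a* had 3846 CPM ± 389 in DT-like and 2936 CPM ± 172 in PT-like cells. *Cox4i1*, the regulatory subunit that binds ATP, had 3253 CPM ± 283 and 2591 CPM ± 99.2, and *Cox7c* had 2090 CPM ± 187 and 2294 CPM ± 135. The alternative isoforms were lower than their partners in all classes, with the exception of *Ndufa4l2* in mural-like cells. This class was named from markers of pericytes and smooth muscle around vessels. Its leading gene against the other cells was *Ren1*, which encodes renin.

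*Ndufa4l2*, a paralog of *Ndufa4* known as a target of hypoxia-inducible factors, had 1328 and 1193 against 1328 and 841 CPM in mural-like cells. There it took 67% ± 5.76 of the UMIs of the pair (SD, n = 4), more than *Ndufa4* in each mouse. It was next highest in cluster 16, an unnamed cluster with stroma and mural markers, with 217 and 171 against 539 and 332 CPM, and in stroma-like cells with 80 and 121 against 346 and 113 CPM. The share was 31.3% ± 12.8 in cluster 16 and 17.2% ± 12.0 in stroma-like cells. In the other named classes its mean was at or below 9.24 CPM. The 4 mice of mural-like cells all lay above those of every other class. At least 1 UMI of *Ndufa4l2* was counted in 98.1% of 160 mural-like cells (exact 95% interval 94.6% to 99.6%, median 11615 UMIs per cell) and in 58.3% of 379 stroma-like cells (53.2% to 63.3%, median 10645 UMIs), against 7.41% of 729 NPC-like cells (5.61% to 9.55%, median 18054 UMIs) as background. Intervals cover counting error only.

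*Cox4i2*, the isoform of *Cox4i1* known from oxygen-sensing cells and from lung, had 368 and 351 against 421 and 258 CPM in mural-like cells, or 19.4% ± 3.63 of its pair. The next values were 108 CPM ± 38.3 in cluster 16 and 37.7 CPM ± 34.8 in cluster 8. In NPC-like cells it had 19.2 and 27.4 against 44.1 and 10.5 CPM and in PT-like cells 1.91 and 3.49 against 2.87 and 2.70 CPM, a 0.121-fold level. It was counted in 86.3% of mural-like cells, in 23.2% of NPC-like cells and in 4.50% of PT-like cells (median 23371 UMIs).

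Both genes were highest in mouse 3 in most classes. *Ndufa4l2* was highest there in 18 of 19 classes and *Cox4i2* in 16 of 19. In stroma-like cells *Cox4i2* had 16.5 and 11.3 against 66.4 and 19.1 CPM. Mouse 3 also had the highest sum of 6 genes known to be induced by hypoxia (*Bnip3*, *Ankrd37*, *Egln3*, *Slc2a1*, *Pgk1* and *Vegfa*, chosen after the data were seen) in 19 of 19 classes, at 1.43 to 5.72 times the mean of the other mice. In stroma-like cells this sum was 449 and 471 against 1365 and 493 CPM, and in mural-like cells 514 and 481 against 1034 and 439 CPM. The 90 genes together were lowest in mouse 3 in 16 of 19 classes and the mitochondrially encoded genes in 15 of 19. What part any of this had in the levels was not tested.

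*Cox7a1*, the muscle-type isoform of *Cox7a2*, was the member with the widest gap between progenitors and tubule. It had 49.2 and 39.5 against 44.9 and 49.7 CPM in PT-like cells and 2.13 and 2.81 against 2.45 and 2.30 CPM in NPC-like cells, an 18.9-fold level. Intercalated-like cells had 42.7 CPM ± 20.1, DT-like cells 32.5 CPM ± 10.4, LOH-like cells 23.8 CPM ± 6.08 and ErPT-like cells 12.9 CPM ± 1.86. Even in PT-like cells it gave only 3.67% ± 0.355 of the UMIs of the *Cox7a* genes. It was counted in 56.5% of PT-like, 20.5% of ErPT-like and 4.39% of NPC-like cells. *Cox7a2l*, which takes part in joining complexes III and IV into supercomplexes, had 394 and 400 against 486 and 483 CPM in NPC-like cells and 376 and 396 against 328 and 323 CPM in PT-like cells.

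*Cox6b2*, known as the testis isoform of *Cox6b1*, was counted in every class. It was highest in DT-like cells with 88.9 and 79.8 against 102.1 and 102.0 CPM, and stroma-like cells had 77.6 and 69.1 against 81.1 and 86.1 CPM. PT-like cells had 23.7 and 18.0 against 32.9 and 24.5 CPM, and endothelial-like cells were lowest with 12.4 CPM ± 2.71. Its share of the pair was 10.8% ± 0.767 in stroma-like, 8.62% ± 1.51 in ureteric bud tip-like and 1.78% ± 0.41 in PT-like cells. Erythroid-like cells had a share of 16.4% ± 10.9, which was 32.4% in mouse 4 and 7.73% to 14.2% in the others. *Cox6a2*, *Cox7b2* and *Cox8b*, known from striated muscle and testis, were at 0.021, 0.082 and 0.041 CPM over all cells.

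**Figure D4:**
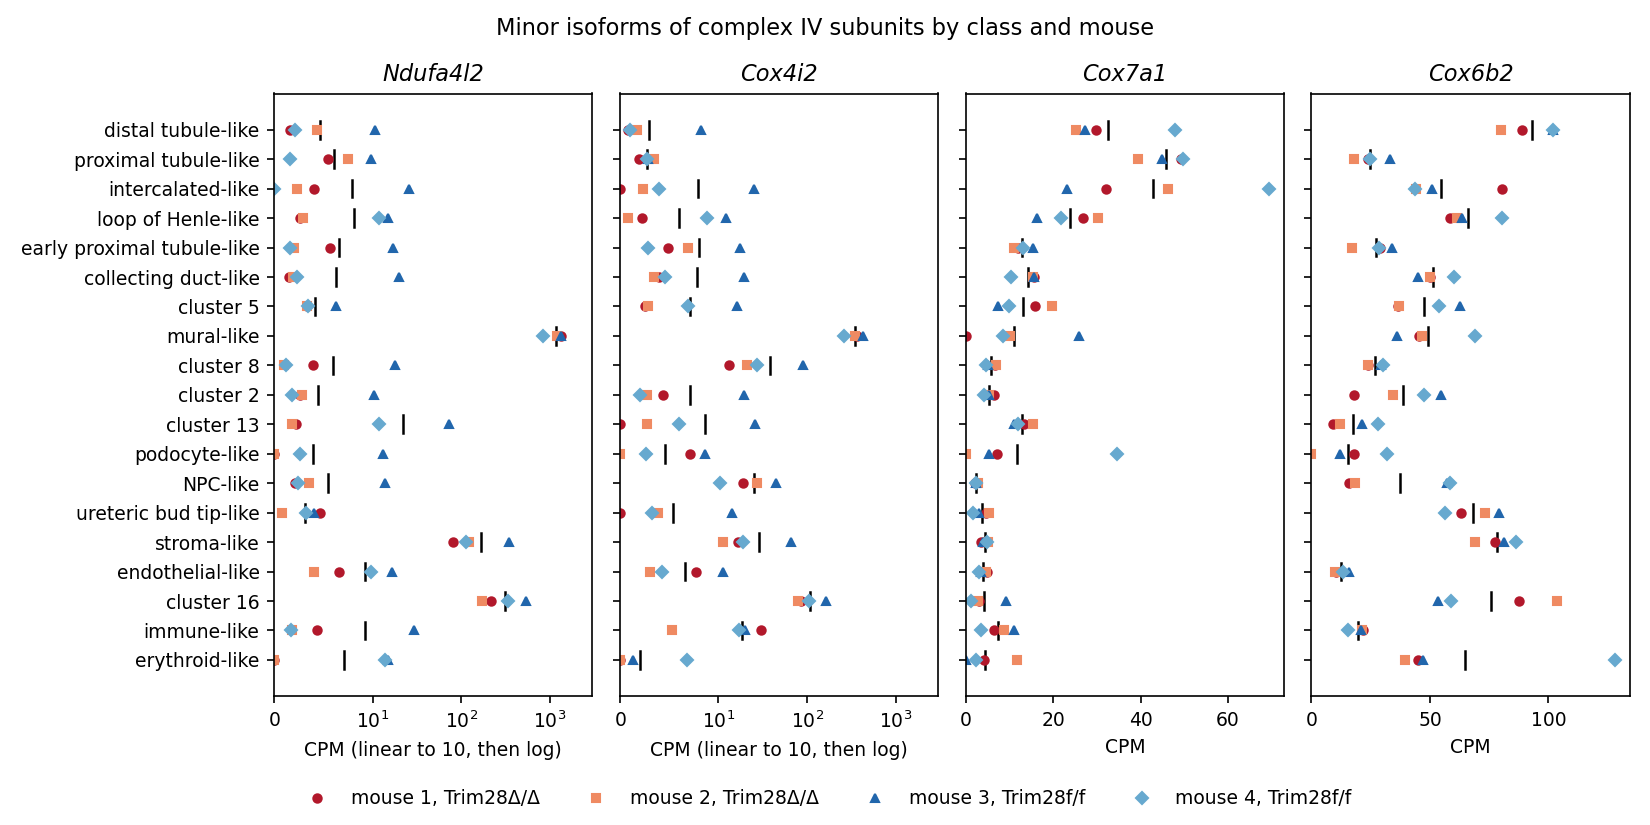
CPM (x axes) of *Ndufa4l2*, *Cox4i2*, *Cox7a1* and *Cox6b2* in each class (rows), with 1 symbol per mouse (red shades Trim28Δ/Δ, blue shades Trim28f/f) and a bar at the mean of 4 mice. The axes of the first 2 panels are linear up to 10 CPM and logarithmic beyond, and the other 2 are linear. *Ndufa4l2* and *Cox4i2* peak in mural-like cells and *Cox7a1* has its highest mean in PT-like cells, and in NPC-like cells *Cox6b2* lies at 16.0 and 18.3 CPM in the Trim28Δ/Δ mice and at 57.1 and 58.3 CPM in the Trim28f/f mice.

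Other genes of mitochondrial respiration were also higher in PT-like and DT-like than in NPC-like cells, although their order of classes was not the same throughout. The 4 genes of complex II, which also belongs to the citric acid cycle, were 2.30 ± 0.0855 times as high in PT-like as in NPC-like cells, 18 citric acid cycle genes 2.04 ± 0.0685 times, 11 carriers and porins 2.24 ± 0.0669 times and the 3 cytochrome c and c1 genes 2.36 ± 0.634 times. In DT-like cells these ratios were 2.88 ± 0.357, 2.95 ± 0.260, 2.29 ± 0.167 and 3.91 ± 0.634. The 13 mitochondrially encoded subunits of the same complexes had lower ratios of 1.72 ± 0.182 and 1.73 ± 0.128, and were highest in intercalated-like cells with 66776 CPM ± 11288, with collecting duct-like cells at 53113 CPM ± 5553 beside LOH-like cells at 51955 CPM ± 5484. The ratios were lower too for 37 further assembly factors, with 1.58 ± 0.0861 and 1.67 ± 0.120. Cells with over 10% mitochondrial UMIs had been left out, which bounds the mitochondrially encoded level from above. Across the 14 named classes the summed members had a Pearson r of 0.882 with the mitochondrially encoded genes, 0.984 with complex II and 0.986 with the citric acid cycle genes (Spearman rho 0.798, 0.877 and 0.965), over points that share cells and libraries.

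The 18 regulators of mitochondrial gene expression summed to 1.04 ± 0.0618 times the NPC-like level in PT-like cells and to 1.89 ± 0.268 times in DT-like cells, and their sum had an r of 0.838 with the members across the 14 classes. *Ppargc1a*, the coactivator PGC-1α, had 16.0 and 19.7 against 30.2 and 10.2 CPM in NPC-like cells and 90.1 and 95.7 against 103.8 and 77.8 CPM in PT-like cells, and reached 377 CPM ± 81.3 in DT-like cells. *Esrra*, the oestrogen-related receptor it works with, had 12.2 CPM ± 1.11, 44.4 CPM ± 5.17 and 48.5 CPM ± 8.17 in NPC-like, PT-like and DT-like cells. *Nrf1*, an activator of many of the members, had 28.8 CPM ± 3.91 in NPC-like but 12.7 CPM ± 2.93 in PT-like cells, and *Tfam*, the packaging protein of mitochondrial DNA, 73.2 CPM ± 9.11 and 48.3 CPM ± 1.88. Across classes the summed members had r = 0.95 with *Esrra*, 0.867 with *Ppargc1a* and −0.328 with *Nrf1* (n = 14 classes). These 4 regulators were named after their values were seen.

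Between genotypes, few of these genes could be told apart. Counts summed per mouse within a class went into edgeR's quasi-likelihood test, and p-values were adjusted (Benjamini-Hochberg) over all genes of the class. In NPC-like cells 1 of 84 tested members passed, *Cox6b2*, which was lower in the Trim28Δ/Δ mice. Of all 11231 genes 123 passed there (1.1%), with 0.588% lower. In each of the 18 other classes 0 members passed in this fit. The share of all genes called there was 0.445% in PT-like, 0.424% in ErPT-like, 0.275% in LOH-like, 0.796% in DT-like and 0.289% in podocyte-like cells, 0.34% in cluster 13, 0.18% in cluster 2, 0.823% in cluster 5, 0.38% in cluster 8, 0.0288% in immune-like cells and 0% in the other 8 classes. At an unadjusted p below 0.05 these classes had 0 to 6 members each, at most 7.14% of those tested, against 3.1% to 10% of all genes. DESeq2 called 1 member in each of clusters 13 and 16, where it called 0.211% and 0.074% of all genes, and none in the other 16 classes. In both clusters the member with the smallest edgeR p was *Ndufa4l2* (edgeR adjusted p = 0.0946 and 0.103), and mouse 3 was highest. It had 2.22 and 1.82 against 72.8 and 11.9 CPM in cluster 13 and 217 and 171 against 539 and 332 CPM in cluster 16. Without the filter on low counts 11 of the 18 classes had 1 or 2 members called, 17 calls in all and all of them lower, while 0.155% to 2.18% of all genes were called in those classes.

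*Cox6b2* had 16.0 and 18.3 CPM in the NPC-like cells of the Trim28Δ/Δ mice and 57.1 and 58.3 CPM in those of the Trim28f/f mice. Both Trim28Δ/Δ mice were far below both Trim28f/f mice. The log2 change was −1.87 (SE 0.24, 95% interval −2.42 to −1.33, edgeR adjusted p = 0.00759), on 731 UMIs. Most of these UMIs came from the Trim28f/f mice, as the class held 45 and 74 against 217 and 393 cells. Both Trim28Δ/Δ mice were lower in each of the 2 clusters of the class, on few UMIs. Cluster 7 had 15.8 and 11.2 against 50 and 52.7 CPM (12 and 10 against 140 and 224 UMIs). Cluster 9 had 16.7 and 30.3 against 72.8 and 64.8 CPM (3 and 16 against 93 and 233 UMIs). The partner *Cox6b1* had 701 and 709 against 629 and 655 CPM (log2 change 0.00, SE 0.12), so that the share of *Cox6b2* in the pair was 2.23% and 2.51% against 8.33% and 8.17%. The call was lost without the cells that the doublet caller Scrublet marked (log2 change −1.52, edgeR adjusted p = 0.0833) and when either Trim28Δ/Δ mouse was left out (−1.79 without mouse 1 and −2.00 without mouse 2).

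The NPC-like cells of the 2 genotypes also differed in markers. The 6 progenitor markers, all of them counted, summed to 261 and 373 CPM against 718 and 905 CPM, and the 6 renal vesicle markers, all counted, to 2203 and 1793 against 1197 and 1268 CPM. Single markers also differed within the clusters of the class. *Cited1*, a marker of uncommitted progenitors, had 10.5 and 9.0 against 90.3 and 179 CPM in cluster 7 and 94.4 and 62.4 against 641 and 462 CPM in cluster 9. Cluster 7 held 32 and 38 against 131 and 176 of the cells. Its naming score, the mean log2 ratio of the markers to the other cells, was 1.58 for progenitors and 1.395 for renal vesicle. *Six2* had 22.4 and 15.7 against 87.8 and 113 CPM in cluster 7. In cluster 9 it had 189 and 119 against 186 and 160 CPM, which overlap. *Wnt4*, which is switched on as progenitors differentiate, had 935 and 922 against 282 and 573 CPM in cluster 7. The part of these differences in the *Cox6b2* level was not tested.

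Over the 18 classes in which *Cox6b2* was tested its change was below 0 in 15 and above 0 in 3. In CPM both Trim28Δ/Δ mice lay below both Trim28f/f mice in 11 of 19 classes and above them in 2. For *Cox4i2* they lay below in 9 of 19 classes and for *Ndufa4l2* in 8, and above in none. How often all genes show such an order was not counted. In the other named classes of the nephron the log2 change of *Cox6b2* was −0.47 in PT-like cells (SE 0.21, edgeR unadjusted p = 0.0569). It was −0.52 in ErPT-like, −0.27 in LOH-like and −0.30 in DT-like cells, and podocyte-like cells were not tested. Leaving out 1 mouse at a time moved the PT-like change between −0.24 and −0.68. Outside the nephron the log2 change was −0.25 in stroma-like (95% interval −0.77 to 0.27), −0.11 in mural-like and −0.05 in ureteric bud tip-like cells. Endothelial-like cells had 11.1 and 10.5 against 15.7 and 14.6 CPM in cluster 4. Their small cluster 21 had 7.0 and 7.6 against 15.4 and 0 CPM. In erythroid-like cells, which Cre does not reach either, the log2 change was −1.72 (SE 0.52, edgeR unadjusted p = 0.00795, adjusted p = 0.431). They had 45.1 and 39.6 against 46.9 and 127.9 CPM, where mouse 4 alone was high. Fitted changes carry edgeR's own scaling between mice (TMM), which CPM do not. In erythroid-like cells the median fitted change of the members was −0.06, and −0.22 to 0.64 under other settings. Among the unnamed clusters the log2 change of *Cox6b2* was −0.93 in the cycling cluster 2 (18.0 and 34.5 against 54.6 and 47.3 CPM), −0.69 in cluster 5 and −1.24 in cluster 13, while cluster 16 went the other way with 0.71. None of these changes outside NPC-like cells passed the adjusted threshold in the main fit, which used all mice. Tested directly, with the mouse as a block, the change in PT-like cells exceeded that in NPC-like cells by 1.39 (SE 0.32, edgeR adjusted p = 0.0379, with 1.5% of 12988 genes called), and the change in NPC-like cells was below that in stroma-like cells by a difference of −1.62 (SE 0.30, edgeR adjusted p = 0.0217, with 0.348% of genes called).

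*Cox6b2* lies at chr7:4751792-4753094 on the minus strand (GRCm38), between *Kmt5c* and *Fam71e2* and on the same chromosome as *Trim28* (chr7:12999114-13031035). Its upstream stretch and that of *Cox6b1* are shown as for the ring genes, since of the pair only *Cox6b2* passed between genotypes in NPC-like cells. They lie at chr7:4753095-4753225 and chr7:30626152-30626364, also on the minus strand, and held no match to AAGGTCA or ACGTG.
Cox6b2: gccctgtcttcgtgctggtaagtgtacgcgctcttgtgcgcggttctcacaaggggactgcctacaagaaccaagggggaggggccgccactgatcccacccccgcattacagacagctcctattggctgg
Cox6b1: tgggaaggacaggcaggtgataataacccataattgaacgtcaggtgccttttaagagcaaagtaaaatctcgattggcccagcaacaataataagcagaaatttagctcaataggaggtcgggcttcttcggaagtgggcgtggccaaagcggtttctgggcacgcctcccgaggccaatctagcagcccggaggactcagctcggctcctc
The first stretch is short, as the annotated 3′ end of *Fam71e2* lies just beyond its 131 bases.

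*Cox7a2l* was the only other member whose change differed between PT-like and NPC-like cells, by 0.67 (SE 0.13, edgeR adjusted p = 0.0150). Neither change passed by itself. It was −0.42 in NPC-like cells (edgeR adjusted p = 0.231) and 0.23 in PT-like cells (edgeR adjusted p = 0.504), with both Trim28Δ/Δ mice below both Trim28f/f mice in the first and above them in the second. Without the Scrublet-marked cells the changes were −0.24 and 0.28, and the difference between them was not tested in that setting. Within NPC-like cells, cluster 7 had 338 and 322 against 430 and 402 CPM and cluster 9 had 627 and 532 against 610 and 580 CPM, which overlap. Between PT-like and stroma-like cells 0 of 86 members differed in edgeR, with 0.313% of all genes called. At an unadjusted p below 0.05 there were 8 members (9.3%) and 6.87% of all genes, and this comparison was not run in DESeq2.

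In the other nephron classes the members with the smallest p did not pass. *Ndufa5* had 430 and 404 against 330 and 348 CPM in PT-like cells (log2 change 0.29, edgeR adjusted p = 0.395). *Ndufs1* had 55.6 and 58.2 against 84.7 and 77.8 CPM in ErPT-like cells (−0.53, edgeR adjusted p = 0.420). *Ndufa4l2*, counted in only 10.7% of 487 LOH-like cells, had 2.67 and 2.91 against 14.9 and 11.9 CPM there, on 102 UMIs (−2.28, edgeR adjusted p = 0.0848). In each of these the genotypes did not overlap, which 2 mice against 2 cannot bring below an exact permutation p of 0.33. *Ndufv3* in DT-like cells (260 and 223 against 324 and 304 CPM, −0.41) and *Uqcrc1* in podocyte-like cells (114 and 95 against 130 and 162 CPM, −0.51) had edgeR adjusted p-values of 0.604 and 0.763.

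In most classes of the nephron the median change of the members was small. Their median log2 change was 0.02 in NPC-like cells (47 of 84 above 0), 0.08 in PT-like cells (68 of 86), 0.07 in LOH-like (65 of 86), 0.06 in DT-like (62 of 84), −0.04 in podocyte-like (35 of 78) and −0.08 in ErPT-like cells (15 of 86), while the median of all genes tested lay between −0.03 and 0.01 in every class. Of all genes tested, the share above 0 was 48.6% in NPC-like, 48.5% in PT-like and ErPT-like, 49.2% in LOH-like, 49.1% in DT-like and 49% in podocyte-like cells. The 95% interval of the change lay within a 2-fold change either way for 84 of 86 members in PT-like, 82 of 86 in ErPT-like and 81 of 84 in NPC-like cells. The median was larger in intercalated-like cells, one of the classes with the highest levels, at −0.26 (4 of 82 above 0), and in cluster 13 at 0.18 (71 of 84), in cluster 2 at 0.12 (74 of 85) and in mural-like cells at 0.12 (67 of 82). The intercalated-like cells number only 10 to 37 per mouse, and their 2 Trim28f/f mice lay at both ends of the summed level. The signs in these nephron classes and in intercalated-like cells moved with single settings or mice. The ErPT-like median turned positive under 5 of 13 other settings, the PT-like median was −0.0417 with at most 5% mitochondrial UMIs, and leaving out 1 mouse moved the LOH-like median between −0.046 and 0.211, the DT-like between −0.0902 and 0.254, the podocyte-like between −0.185 and 0.118 and the intercalated-like between −0.556 and 0.151. In ErPT-like cells the 8 proximal tubule markers, all counted, also summed to 1011 and 1225 against 1915 and 2126 CPM, and their part in the median was not tested.

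**Figure D5:**
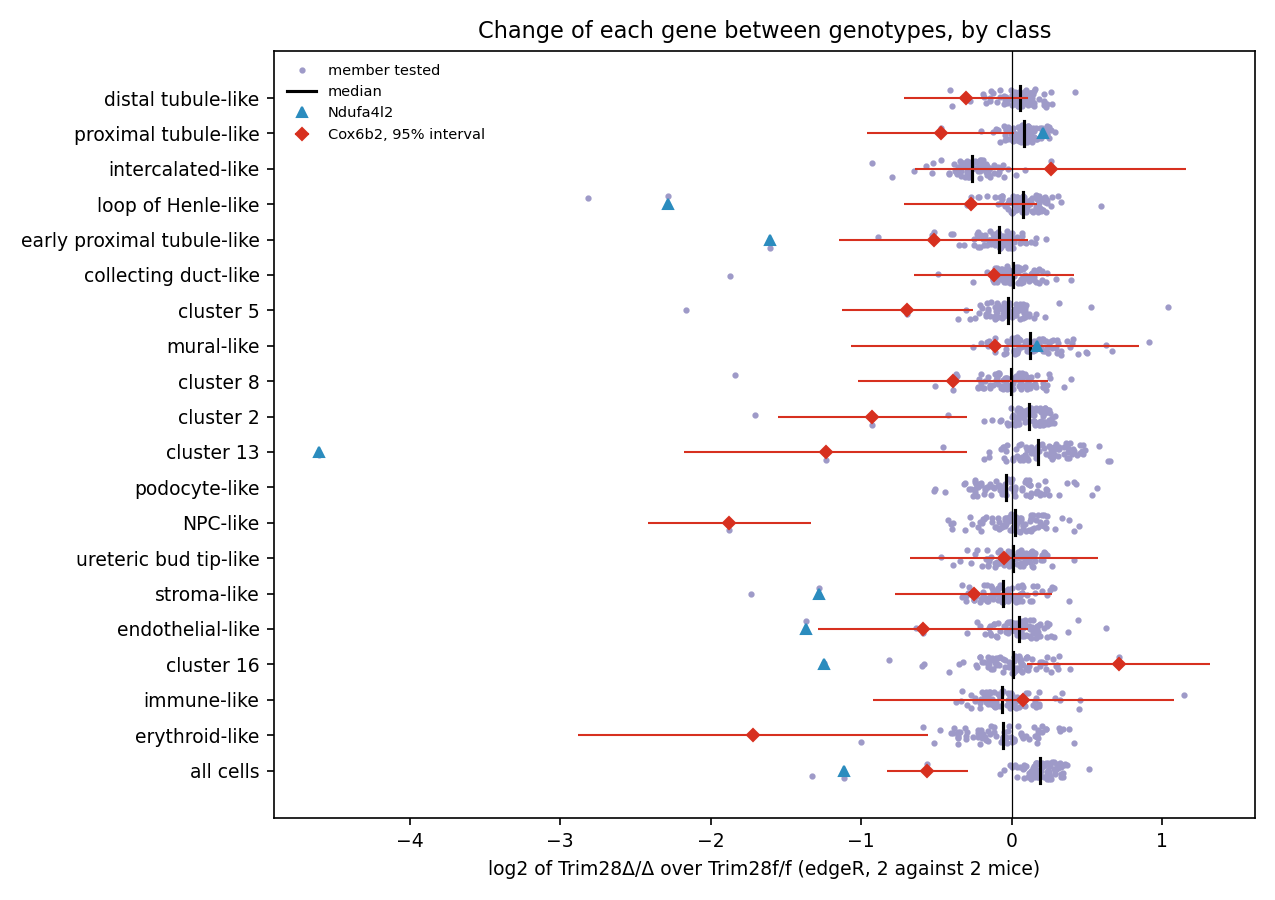
Fitted log2 change of Trim28Δ/Δ over Trim28f/f (x axis) of each tested member (pale points) in each class and over all cells (rows), with a black bar at the median of the members. Blue triangles mark *Ndufa4l2* and red diamonds *Cox6b2* with its 95% interval, which in NPC-like cells runs from −2.42 to −1.33.

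Over all cells of a mouse, the members summed to 49055 and 45887 CPM against 38722 and 41395 CPM, and 80 of 86 members had a change above 0, against 48% of all genes, with a median of 0.19. In edgeR 0 members passed, where 0.206% of all genes did, 21 were at an unadjusted p below 0.05, as were 15.7% of all genes, and DESeq2 called 1, with 2.86% of all genes. Without the filter on low counts edgeR called 2 of 89 members (2.25%) and 3.8% of all genes. In such sums more cells of a type and more RNA per cell cannot be told apart. PT-like, DT-like, LOH-like and intercalated-like cells, the 4 classes with the highest levels, made up 33.4% and 30.2% of the cells of the Trim28Δ/Δ mice and 17.1% and 18.0% of those of the Trim28f/f mice.

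Of the other lists of respiration genes, 104 genes in all, 1 of 1718 tests in 19 classes passed. It was in PT-like cells, where 0.445% of all 12129 genes passed. The shares of all genes that passed in the other classes are those given above beside the members. *Ucp2*, an uncoupling protein of the inner membrane, had 16.6 and 12.8 CPM in the PT-like cells of the Trim28Δ/Δ mice against 42.3 and 40.1 CPM (log2 change −1.50, SE 0.17, edgeR adjusted p = 0.0144). In NPC-like cells it had 41.5 and 64.0 against 48.1 and 63.9 CPM, which overlap. Whether the *Ucp2* call held under the other settings was not examined.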

How the data were processed

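The members and gene lists were chosen with earlier results of these data known, and the thresholds for naming clusters were set after the clusters were seen. The deposited matrix holds whole UMI counts per gene and tag counts per barcode, which the authors made with Cell Ranger 6.0.0 on GRCm38 (mm10). Their later steps, in R 4.1.0 and Seurat 4.0, required 200 genes per cell and allowed mitochondrial UMIs up to 10%. The stage in the labels is 1 day earlier than in the text of the study. The bulk samples of the series were not analysed here.

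Of 3921239 barcodes, 21385 were called as cells (at least 6891 UMIs) and 19272 had at most 10% mitochondrial UMIs. HTODemux (Seurat 5.3.0) on the tag counts assigned 7363 cells to 1 of the 4 named tags. It put 4508 on tags that the labels do not tie to these mice, 4721 on several tags and 2680 on none. Scrublet (scanpy 1.11.5) marked 563 assigned cells (7.65%) as doublets, which were kept in the main result and left out in an alternative. As all cells came from 1 pool, no barcode is shared between libraries. Counts were normalized with sctransform 0.4.2 and clustered on 30 principal components of 3000 variable genes, 19 of them members, at resolution 0.8. A cluster was named from fixed markers where enough of them were high, and otherwise kept its number. Free RNA was profiled from barcodes with 10 to 100 UMIs.

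UMI counts were summed per mouse and class, for classes with at least 10 cells per mouse, and tested with edgeR 4.0.16 (TMM, quasi-likelihood, Benjamini-Hochberg over all genes of the class, threshold 0.05). With 2 mice against 2 an exact permutation test cannot go below 0.33. DESeq2 1.42.0, other filters, scalings, assignments and clusterings and leaving out each mouse were alternatives. The genes named for levels were the isoform pairs with a UMI, the 3 most abundant members of each complex, and the 10 of at least 20 CPM with the largest ratio of the highest to the median class. Those named between genotypes were the members with adjusted p below 0.05 in a class (at most 25), the member with the smallest p in nephron classes without one, and genes of the other lists that passed. *Ndufb4*, *Ndufb10*, *Ndufaf2*, *Cox7a2l* and the values of *Ndufv3* and *Ndufa6* over NPC-like cells were chosen after values were seen. The edgeR fit was tried on simulated counts of NPC-like and PT-like cells only, with 200 genes given large changes. This does not bear on other classes or on changes as small as the medians of the members. Promoter windows came from RefSeq (GRCm38.p6) and were available for 72 of 90 members, 5 of them with several windows. Other tools were numpy 2.4.6, pandas 2.3.3, scipy 1.17.1 and R 4.3.3.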

Additional observations from a re-analysis of the deposited data

Results flagged for a closer look

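In groups of 4 mice, 11 of 104 tested sets of values held 1 mouse far from the others by Dixon's criterion, where chance gives about 5%. Mouse 3 was that mouse in 8 of them. In endothelial-like cells its summed level of 28708 CPM was the lowest and its *Atp5g2* level of 1064 CPM the highest. In immune-like cells it was low in *Atp5g3* (312 CPM) and *Atp5g1* (449 CPM). In stroma-like cells it was high in *Cox4i2* (66.4 CPM) and *Ndufa4l2* (346 CPM), as it was in *Ndufa4l2* in cluster 13 (72.8 CPM) and in *Atp5g2* in ureteric bud tip-like cells (1176 CPM). The other 3 were *Atp5g3* in mural-like cells of mouse 2 (618 CPM), *Atp5g2* in mural-like cells of mouse 4 (887 CPM) and *Cox6b2* in erythroid-like cells of mouse 4 (127.9 CPM).

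The genotype change differed between classes for 2 members by an interaction test in edgeR. These were 2 of 86 members between PT-like and NPC-like cells, where 1.5% of all genes were called, and 1 of 85 between NPC-like and stroma-like cells, where 0.348% were. For *Cox6b2* the change in PT-like cells exceeded that in NPC-like cells by 1.39 on the log2 scale, and that in NPC-like cells minus that in stroma-like cells was −1.62. For *Cox7a2l* the difference between PT-like and NPC-like cells was 0.67.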

How the results depend on the processing

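No paired analysis was possible because the mice share no replicate numbers, and the shared numbers in the labels belong to bulk samples not analysed here. *Cox6b2* in NPC-like cells stayed lower under all alternatives run, from −1.52 to −2.01. The number of members called became 0 in NPC-like cells without the Scrublet-marked cells (with 1.09% of all genes called), 1 in ErPT-like (1.77% of all genes) and 2 in LOH-like cells (2.1% of all genes) with no filter on low counts, and 1 over all cells with DESeq2 (2.86% of all genes). With no filter there were also 2 over all cells (3.8% of all genes) and 1 or 2 in each of 9 further classes. The median change of the members in NPC-like cells moved to 0.16 with library size alone as scaling (all genes 0.13) and to −0.0436 with no filter. In PT-like cells it moved to −0.0417 with at most 5% mitochondrial UMIs and to 0.15 with tag counts centred across cells. In ErPT-like cells it moved to −0.12 with no filter, −0.0373 for cells with at least 80% of their tag counts on 1 tag, 0.0061 with clustering without the gene lists, 0.0256 at resolution 1.2, 0.0287 with at most 5% mitochondrial UMIs, 0.0034 without Scrublet-marked cells, 0.007 with at most 20% mitochondrial UMIs and −0.0346 with centred tag counts. The 20% limit and the centring were chosen after seeing the data. The cause was not tested.

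With free RNA subtracted, the ratio to NPC-like cells was 2.23 in PT-like, 2.73 in DT-like, 2.10 in LOH-like and 0.283 in erythroid-like cells (0.646 in the last with clustering without the lists), and shares were 79.3% for *Ndufa4l2* and 26.9% for *Cox4i2* in mural-like, 23.4% for *Atp5g2* in PT-like and 28.1% for *Cox6b2* in erythroid-like cells.

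Leaving out each mouse in turn, where the lone mouse is assumed to vary like the other group, gave 0 to 14 members called in NPC-like, 0 to 2 in PT-like, 0 to 14 in ErPT-like, 0 to 32 in LOH-like, 0 to 0 in DT-like, 0 to 2 in podocyte-like and 0 to 39 in all cells. The highest counts in NPC-like, ErPT-like, LOH-like and all cells came without mouse 4, when mouse 3 was the only Trim28f/f mouse and calls rose among all genes too. The members called were then 16.5% against 11.6% of all genes in NPC-like, 16.3% against 14.8% in ErPT-like, 37.2% against 17.1% in LOH-like, 2.33% against 13.1% in PT-like, 0% against 6% in DT-like, 2.56% against 7% in podocyte-like and 45.3% against 26.2% in all cells. Elsewhere the members called without mouse 4 numbered 25 of 86 in collecting duct-like cells (29.1% against 27.5%), 21 of 86 in cluster 2 (24.4% against 9.59%), 18 of 86 in cluster 13 (20.9% against 19.8%) and 13 of 86 in endothelial-like cells (15.1% against 13.1%), and without mouse 3 there were 11 of 83 in intercalated-like cells (13.3% against 1.52%). The medians ran from −0.0155 to 0.0469 in NPC-like, 0.0257 to 0.15 in PT-like, −0.13 to −0.0283 in ErPT-like, −0.05 to 0.21 in LOH-like, −0.0902 to 0.25 in DT-like, −0.19 to 0.12 in podocyte-like and 0.14 to 0.26 in all cells. Intervals were widest in intercalated-like cells, where 49 of 82 members had one within a 2-fold change and the summed level varied most between mice.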
